A study of Mus musculus with 5 samples.

Results

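Genes that mark endothelial cells were examined in RNA-Seq of bone marrow-derived macrophages (BMDMs), the cells grown from mouse bone marrow with macrophage colony-stimulating factor (M-CSF). The set holds 10 genes of the 21878 in the deposited table, chosen by symbol: the receptors Kdr, Flt1, Tie1 and Tek, the co-receptor Eng, the junction genes Cdh5, Pecam1 and Esam, the sialomucin Emcn and the secreted factor Egfl7. This set and the lists of other genes used below were chosen with earlier results of these data known. Shares over all genes are therefore given beside their counts as a description and not as a test. Wild-type BMDMs came from Kdm6aF/Y mice (2 samples, replicates 1 and 3), in which the X-linked Kdm6a allele is floxed but intact. Kdm6a-deficient BMDMs came from Kdm6aF/Y;Lyz2-Cre mice (3 samples, replicates 1, 2 and 3), which carry the same floxed allele and a Cre recombinase under the control of Lyz2, a lysozyme gene active in myeloid cells. All samples were labelled as treated with lipopolysaccharide (LPS). For BMDMs in general, the methods describe marrow of 10-week-old male mice on a C57BL/6J background, 6 days with M-CSF and 3 days without it, and 100 ng/ml LPS for 24 h. The methods call each RNA sample pooled, and separate mice are not stated for the samples, so p-values measure only the spread between these samples.

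Endothelial cells line blood vessels and sinusoids, also in bone marrow. Their growth and survival depend on VEGF, which acts through the tyrosine kinase receptors Kdr (VEGFR2) and Flt1 (VEGFR1), and on angiopoietins, which act through Tek (Tie2), with Tie1 as its partner receptor. VE-cadherin, the product of Cdh5, holds neighbouring endothelial cells together at adherens junctions. Several of these genes are not exclusive to endothelium: Pecam1 (CD31) is also made by leukocytes and platelets, Eng (endoglin, CD105) by activated macrophages, Flt1 by monocytes, and Tek, Esam and Emcn by haematopoietic stem cells.

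Of the 10 genes, 9 were lower in each of the 3 Kdm6a-deficient libraries than in either wild-type library, and Eng was the exception. Over all genes detected in any sample, 18.0% showed such a separation with the Kdm6a-deficient samples below (19.2% of the genes tested). The Kdm6a-deficient mean of each gene was also taken as a percentage of its own wild-type mean. The median of these percentages was 55.8% over the 10 genes and 99.3% over all genes detected in wild-type samples. Genes that reached 1 FPKM in 2 or more libraries were tested by limma on log2(FPKM + 1), where FPKM are fragments scaled to transcript length and to the number of mapped fragments. A total of 7 of the 10 genes entered that test. Cdh5 and Tie1 fell (adjusted p under 0.05 over all 10893 tested genes), none rose, and 5 did not pass. The background was 2.18% of tested genes called lower and 1.73% called higher, 3.91% in all. For 1 gene alone, the two-sided exact permutation p of 2 against 3 libraries is at least 0.1. In bulk RNA, fewer cells of a type and less RNA per cell cannot be told apart.

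**Figure D1:**
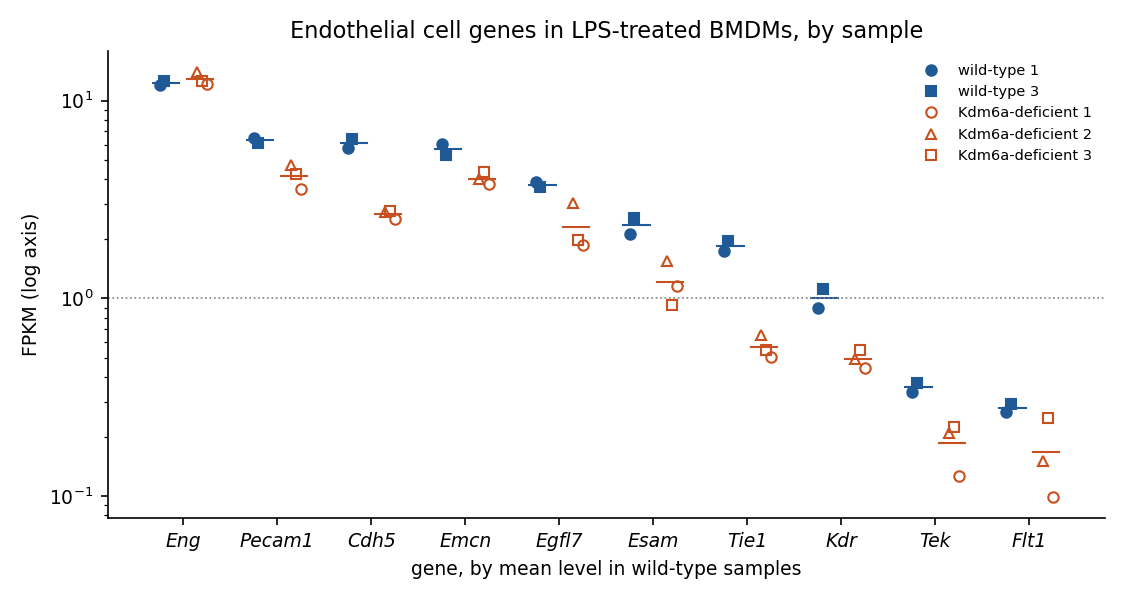
FPKM (log axis) of the 10 endothelial cell genes in each sample, ordered by their mean in wild-type samples; filled symbols are wild-type, open symbols Kdm6a-deficient, short lines the means, and the dotted line 1 FPKM. Eng overlaps between genotypes near 12 FPKM, while for the other genes every open symbol lies below both filled ones.

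Kdm6a itself, the targeted histone demethylase gene, was at 3.72 and 2.91 FPKM in wild-type samples 1 and 3 and at 2.81, 1.77 and 2.44 FPKM in Kdm6a-deficient samples 1, 2 and 3. The groups did not overlap, but the log2 fold change of −0.38 (standard error, SE, 0.15) did not pass the test (limma, adjusted p = 0.268), and FPKM summed over a gene cannot show whether the floxed exons are missing. Macrophage markers were abundant in every sample, with Adgre1, the gene of F4/80, between 734 and 831 FPKM and Csf1r, the M-CSF receptor, between 232 and 269 FPKM (both picked once their values had been seen). The endothelial cell genes were far lower, between 0.0996 and 13.95 FPKM. The number of genes at 1 FPKM or more ranged from 10641 to 10769 per sample. The depth of each library is unknown, because the files give FPKM. The mean normalised read counts that the authors deposited for each genotype give an idea of the reads behind each value. They ran from 22.0 for Tek in Kdm6a-deficient BMDMs to 1146 for Eng. Which libraries entered each mean is not stated in the sources used here.

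The regulatory sequence just before the start of 4 of these genes is shown because most of these genes were lower together while Eng was not. Each is the 250 bases upstream of a RefSeq start in GRCm38.p6, read 5′ to 3′ on the strand of the gene, with the letters AGGAAG, a form of the core bound by ETS transcription factors, in capitals on either strand (CTTCCT on the other). Tie1 (chr4:118489850-118490099, minus strand) and Kdr (chr5:75978456-75978705, minus strand) encode receptors, Egfl7 (chr2:26580833-26581082, plus strand, the first of its 3 starts) a secreted factor, and Eng (chr2:32646345-32646594, plus strand) the co-receptor whose level overlapped between genotypes.
Tie1: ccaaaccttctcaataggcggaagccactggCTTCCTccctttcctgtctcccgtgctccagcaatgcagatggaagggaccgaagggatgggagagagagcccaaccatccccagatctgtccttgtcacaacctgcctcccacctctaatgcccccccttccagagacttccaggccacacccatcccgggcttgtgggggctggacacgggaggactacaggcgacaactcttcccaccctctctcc
Kdr: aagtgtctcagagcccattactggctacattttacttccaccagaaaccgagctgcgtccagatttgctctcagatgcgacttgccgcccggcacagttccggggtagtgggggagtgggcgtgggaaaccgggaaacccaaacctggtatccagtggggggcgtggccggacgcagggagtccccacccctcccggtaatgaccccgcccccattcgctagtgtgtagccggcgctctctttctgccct
Egfl7: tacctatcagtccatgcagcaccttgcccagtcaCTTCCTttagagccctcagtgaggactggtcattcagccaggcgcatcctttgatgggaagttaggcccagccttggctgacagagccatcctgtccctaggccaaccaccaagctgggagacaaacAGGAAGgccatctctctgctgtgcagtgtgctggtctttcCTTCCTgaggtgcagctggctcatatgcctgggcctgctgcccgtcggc
Eng: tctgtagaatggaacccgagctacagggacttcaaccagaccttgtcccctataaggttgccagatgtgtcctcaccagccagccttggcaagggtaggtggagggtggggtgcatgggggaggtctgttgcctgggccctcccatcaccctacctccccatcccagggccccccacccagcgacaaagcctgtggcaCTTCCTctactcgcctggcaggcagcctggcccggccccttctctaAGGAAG
ETS factors such as Erg and Fli1 are known regulators of endothelial genes. The letters AGGAAG occurred in 6 of 9 upstream windows of the 7 genes that were found in the RefSeq table, and in 29.5% of all 32851 windows. In the windows shown, Eng held them 2 times, Egfl7 3 times, Tie1 1 time and Kdr 0 times, and the other windows of Egfl7 held them 1 time and 0 times. Cdh5, Pecam1 and Esam had no window, and Eng was the only gene that was not lower. These windows therefore cannot say whether lower genes differ from others in these letters. The GATA letters AGATAA were in none of the 9 windows and in 9.99% of all windows. These matches describe the letters only and say nothing of binding.

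The VEGF receptors were among the lowest of the group. Kdr, the main signalling receptor for VEGF in endothelium, had 0.892 and 1.11 FPKM in wild-type replicates and 0.444, 0.491 and 0.549 FPKM in those lacking Kdm6a. Wild-type sample 3 alone reached 1 FPKM, so Kdr was not part of the main test. Its Kdm6a-deficient mean was 49.3% of the wild-type mean, and the groups were well apart. In the fit without a filter, Kdr was lower with a log2 fold change of −0.42 (limma, SE 0.07, adjusted p = 0.0459), where 1.52% of 16213 genes were called lower and 0.944% higher. Flt1, a high-affinity VEGF receptor that can act as a decoy, gave 0.267 and 0.294 FPKM for wild-type and 0.0996, 0.151 and 0.250 FPKM for Kdm6a-deficient BMDMs. Sample 3 of the Kdm6a-deficient group came close to the wild-type samples, at 89.2% of their mean. The log2 fold change of Flt1 without a filter was −0.14 (limma, 95% interval −0.28 to 0.0074, adjusted p = 0.337), which did not pass.

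Of the Tie receptors, Tie1 fell. Tie1 (gene ID 21846, chromosome 4), the orphan receptor that pairs with Tek, measured 1.73 and 1.95 FPKM in wild-type libraries against 0.503, 0.654 and 0.551 FPKM in Kdm6a-deficient ones. This was the lowest share of the 10 genes, 31.0% of the wild-type mean. The fall of Tie1 was −0.86 on the log2 scale (limma, SE 0.09, adjusted p = 0.00413), which understates the change of a low gene and was −1.54 with a pseudocount of 0.1 FPKM (limma, adjusted p = 0.00607). Only the wild-type samples put Tie1 past the filter, so it could enter the test only as a lower gene. The call held with each of the 5 samples left out in turn (limma, adjusted p = 0.00949 to 0.0359). Tek, the angiopoietin receptor, had 0.338 and 0.375 FPKM in wild-type replicates and 0.127, 0.208 and 0.223 FPKM in those lacking Kdm6a. Its groups did not overlap, at 52.2% of the wild-type mean, and in the fit without a filter its log2 fold change was −0.19 (limma, 95% interval −0.30 to −0.085, adjusted p = 0.113).

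Eng, a co-receptor for BMP9 and TGF-β on endothelial cells, was the most abundant of the group in both genotypes. It gave 11.9 and 12.5 FPKM for wild-type and 12.1, 13.95 and 12.6 FPKM for Kdm6a-deficient BMDMs. The groups overlapped, and the highest value was in Kdm6a-deficient sample 2. The log2 fold change of Eng was 0.07 (limma, 95% interval −0.14 to 0.27, adjusted p = 0.774), so a fall to the level of Cdh5 or Tie1 lay outside the interval.

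**Figure D2:**
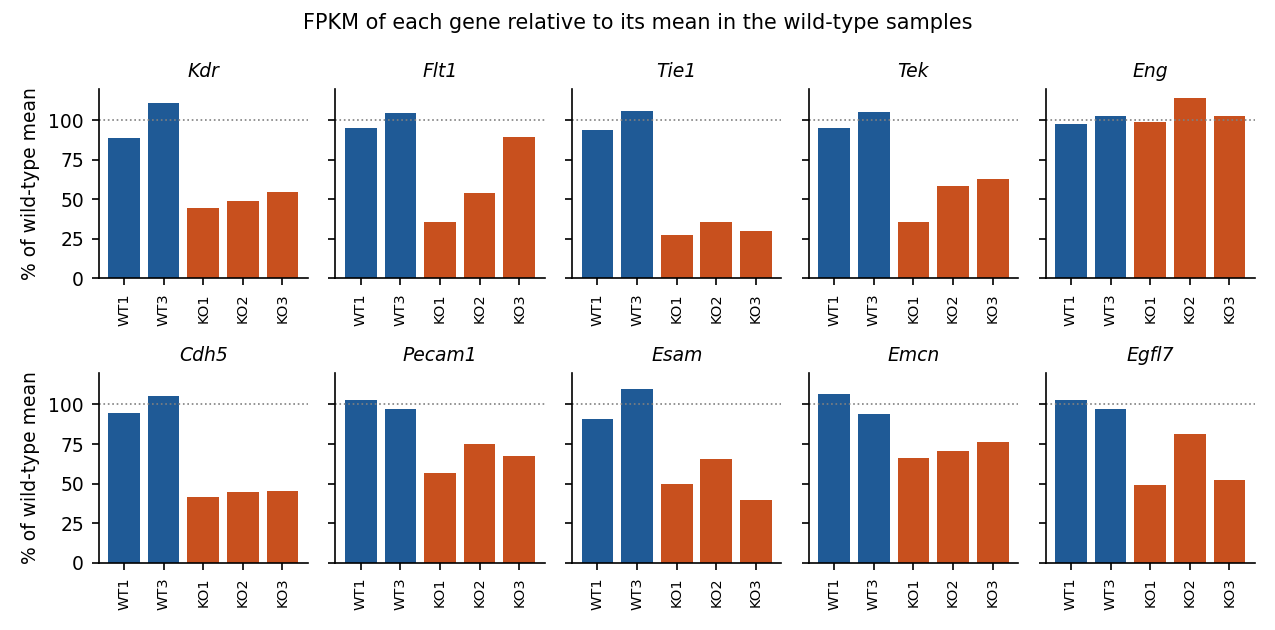
FPKM of each endothelial cell gene as a percentage of its mean in the 2 wild-type samples (WT1 and WT3, blue) and in Kdm6a-deficient samples KO1, KO2 and KO3 (orange), with the dotted line at 100%. Tie1 lies between 27.4% and 35.6% in the Kdm6a-deficient samples and Eng between 98.6% and 114.0%.

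Of the junction genes, Cdh5 changed most. Cdh5 (gene ID 12562, chromosome 8), which encodes VE-cadherin, measured 5.79 and 6.41 FPKM in wild-type libraries against 2.52, 2.74 and 2.76 FPKM in Kdm6a-deficient ones. The Kdm6a-deficient samples lay close together, between 41.3% and 45.2% of the wild-type mean. The log2 fold change of Cdh5 was −0.95 (limma, SE 0.09, 95% interval −1.16 to −0.74, adjusted p = 0.00275), and 22 of the tested genes had a lower one. Its call held in all 11 alternatives tried, single samples left out included (limma, adjusted p = 0.00272 to 0.0239).

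Pecam1, the adhesion molecule CD31, had 6.48 and 6.11 FPKM in wild-type replicates and 3.57, 4.73 and 4.24 FPKM in those lacking Kdm6a. Esam, an adhesion molecule of tight junctions, gave 2.12 and 2.56 FPKM for wild-type and 1.16, 1.54 and 0.930 FPKM for Kdm6a-deficient BMDMs. Both genes separated the genotypes, at 66.4% and 51.7% of the wild-type mean, yet neither passed. The log2 fold change of Pecam1 was −0.50 (limma, SE 0.11, adjusted p = 0.0612) and that of Esam −0.60 (limma, SE 0.13, adjusted p = 0.0598).

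Emcn, a sialomucin of venous and sinusoidal endothelium, measured 6.05 and 5.34 FPKM in wild-type libraries against 3.77, 4.0 and 4.33 FPKM in Kdm6a-deficient ones. Its difference was the smallest of the 9 lower genes in relative terms, 70.9% of the wild-type mean, with a log2 fold change of −0.41 (limma, SE 0.09, adjusted p = 0.0665). Egfl7, a secreted factor of the vessel wall whose gene also hosts the microRNA miR-126, had 3.88 and 3.65 FPKM in wild-type replicates and 1.86, 3.05 and 1.98 FPKM in those lacking Kdm6a. Kdm6a-deficient sample 2 stood apart, at 81.1% of the wild-type mean against 49.4% and 52.5% in samples 1 and 3. The log2 fold change of Egfl7 was −0.55 (limma, SE 0.16, adjusted p = 0.126).

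Without Kdm6a-deficient sample 2, the library farthest from its group, 5 of the 7 tested genes were lower in place of 2, where 3.63% of all tested genes were called lower. The 3 added genes were Pecam1 (log2 fold change −0.58, adjusted p = 0.0299 from limma), Esam (−0.71, adjusted p = 0.0283) and Egfl7 (−0.71, adjusted p = 0.0118). Leaving out any other single sample gave Cdh5 and Tie1 alone. Eng stayed above 0 in each of these fits, from 0.01 to 0.11 on the log2 scale, and passed in none. Within the Kdm6a-deficient group, sample 1 had the lowest level of 9 of the 10 genes, Eng among them, and sample 2 the highest level of 5.

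**Figure D3:**
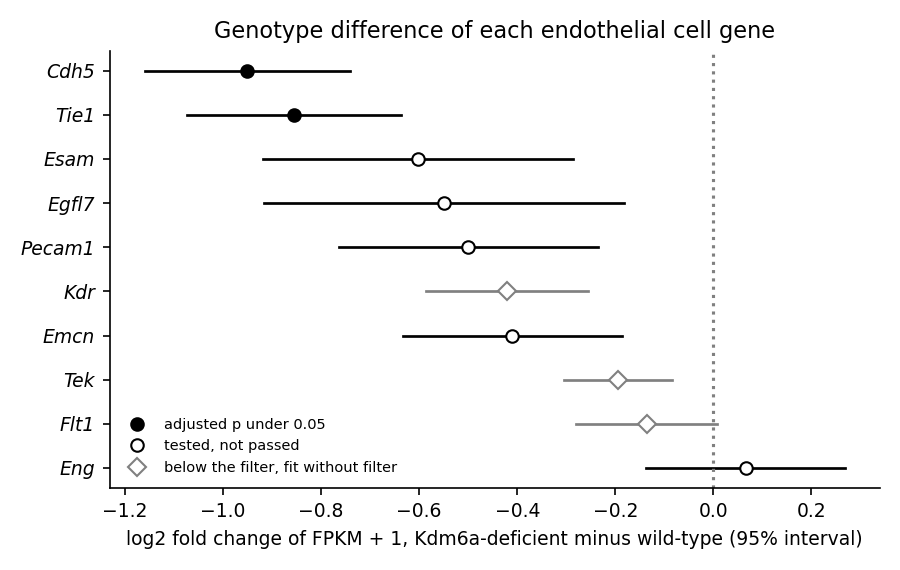
Log2 fold change of FPKM + 1 (Kdm6a-deficient minus wild-type) with its 95% interval for each endothelial cell gene. Filled circles passed at an adjusted p under 0.05, open circles did not, and grey diamonds are genes below the filter, from the fit without it. The intervals of Eng and Flt1 reach 0.

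**Figure D4:**
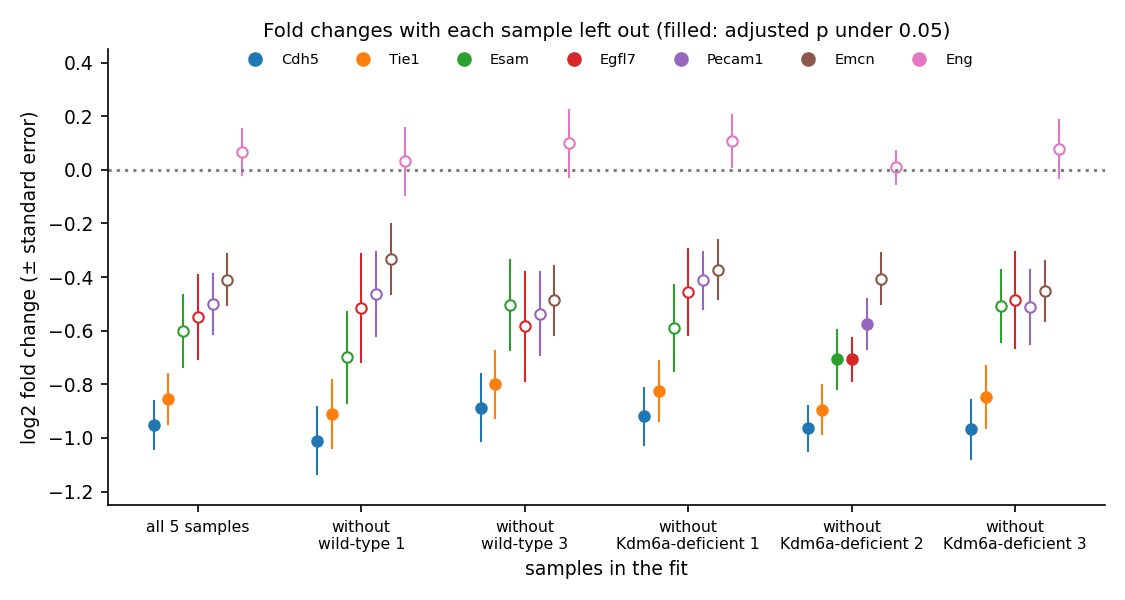
Log2 fold change (± standard error) of the 7 tested endothelial cell genes with all 5 samples and with each sample left out. Filled circles have an adjusted p under 0.05. Cdh5 and Tie1 are filled throughout, and Esam, Egfl7 and Pecam1 are filled only without Kdm6a-deficient sample 2.

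FPKM are scaled to transcript length, so levels can be ranked between genes. In wild-type BMDMs the order of mean FPKM was Eng, Pecam1, Cdh5, Emcn, Egfl7, Esam, Tie1, Kdr, Tek and Flt1. The range of Cdh5 overlapped there with those of Pecam1 and Emcn, and no other neighbours overlapped. In Kdm6a-deficient BMDMs, Emcn ranked above Cdh5 and the rest of the order was the same. There, Pecam1 overlapped with Emcn, Cdh5 with Egfl7, Tie1 with Kdr, and Tek with Flt1.

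Likeness of pattern was measured as the root mean square difference between log2(FPKM + 1) values, each centred on its mean over the 5 samples, among the 7115 tested genes averaging 5 FPKM or more. The nearest genes to Tie1 were Inhbb, a subunit of activin and inhibin (0.040), Ddit4, a stress-induced inhibitor of mTOR signalling (0.053), and Apln, the peptide apelin (0.056). The nearest to Cdh5 were Col5a3, a chain of type V collagen (0.050), Fbln2, the matrix protein fibulin-2 (0.060), and Apln (0.069). Inhbb gave 10.4 and 11.2 FPKM for wild-type and 5.40, 6.39 and 5.45 FPKM for Kdm6a-deficient BMDMs. Fbln2 measured 125.0 and 134.0 FPKM in wild-type libraries against 69.3, 65.6 and 66.4 FPKM in Kdm6a-deficient ones. With 5 samples in 2 groups, such likeness mostly restates the difference between genotypes.

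Other genes of the same pathways were read from 12 lists, whose 7 shared genes are counted in each. The background for each list is 2.18% of tested genes called lower and 1.73% called higher, and single calls in a short list do not describe that list. No share over all tested genes was taken for an unadjusted p under 0.05. Counts by that cutoff, here and below, therefore have no background and are not read as a result. Of 6 tested VEGF ligands and co-receptors and of 4 tested angiopoietin pathway genes, none was called at an adjusted p under 0.05 in limma, where 1 and 0 had an unadjusted p under 0.05, and their median log2 fold changes were −0.0097 and −0.040 (0.0048 over all tested genes). Vegfa, the main ligand of Kdr, had 48.7 and 47.7 FPKM in wild-type replicates and 39.3, 37.2 and 39.5 FPKM in those lacking Kdm6a. The genotypes did not overlap, and the log2 fold change of −0.31 (standard error 0.07) missed the threshold (adjusted p = 0.0541 from limma, but 0.0338 without Kdm6a-deficient sample 2, 0.0417 after quantile normalization and 0.0253 with a replicate block). Flt4, the VEGFR3 of lymphatic vessels, which was below the filter and is named after its values were seen, gave 0.653 and 0.770 FPKM for wild-type and 0.194, 0.253 and 0.343 FPKM for Kdm6a-deficient BMDMs. The angiopoietin genes Angpt1, Angpt2 and Angpt4 had log2 fold changes of 0.34, −0.21 and −0.15 (adjusted p = 0.505, 0.394 and 0.515 from limma).

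Of 15 tested genes of the endoglin and BMP9-ALK1 pathway, 2 were higher, none was lower and 13 did not pass in limma (median log2 fold change 0.05). Over all tested genes, 1.73% were called higher and 2.18% lower. Id1, an inhibitor of differentiation that BMP signals induce, rose from 2.85 and 3.49 FPKM in wild-type to 9.12, 11.8 and 11.4 FPKM in Kdm6a-deficient samples. This was a log2 fold change of 1.5 (limma, SE 0.13, adjusted p = 0.00208). Id2, its relative, changed by 0.63 on the log2 scale (limma, adjusted p = 0.0076), a call lost on leaving out wild-type sample 3 or Kdm6a-deficient sample 3 (limma, adjusted p = 0.0718 and 0.0538). Acvrl1, the ALK1 receptor that pairs with endoglin in endothelium and was picked once its values had been seen, measured 11.1 and 12.0 FPKM in wild-type libraries against 11.6, 13.2 and 11.3 FPKM in Kdm6a-deficient ones. Its level overlapped between genotypes, as did that of Eng (log2 fold change 0.05, adjusted p = 0.84 from limma).

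Of 16 tested junction genes from outside the set, 2 were lower, none was higher and 14 did not pass in limma, with a median log2 fold change of −0.17. Among all tested genes, 2.18% were called lower and 1.73% higher. Cldn5, the claudin of endothelial tight junctions, had 1.94 and 2.04 FPKM in wild-type replicates and 0.379, 0.589 and 0.602 FPKM in those lacking Kdm6a. Its log2 fold change was −0.98 (limma, SE 0.10, adjusted p = 0.00345), and as with Tie1, only the wild-type samples put it past the filter. Cgnl1, the junction protein paracingulin, fell by 0.63 on the log2 scale (limma, adjusted p = 0.0121), a call lost on leaving out wild-type sample 3 or Kdm6a-deficient sample 3 (limma, adjusted p = 0.101 and 0.0634). The catenins that bind cadherins at the membrane did not pass: Ctnnb1, Ctnnd1 and Ctnna1, picked once their values had been seen, had log2 fold changes of −0.16, 0.04 and −0.0025 (adjusted p = 0.382, 0.878 and 0.993 from limma).

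Of 21 further endothelial marker genes tested, 8 were lower, none was higher and 13 did not pass, and 4 of the 8 were past the filter only through the wild-type samples. Calls over all tested genes were 2.18% lower and 1.73% higher. Of 36 detected genes of that list, 18 separated the genotypes with the Kdm6a-deficient libraries lower and 4 with them higher (18.0% and 14.3% over all detected genes), and the median log2 fold change of the tested genes was −0.25. Apln, a peptide of sprouting vessels, gave 13.5 and 15.3 FPKM for wild-type and 7.23, 7.79 and 8.17 FPKM for Kdm6a-deficient BMDMs (log2 fold change −0.82, SE 0.09, adjusted p = 0.00467 in limma). Sox18, a transcription factor of vessel development, was at a log2 fold change of −0.69 (adjusted p = 0.0105), S1pr1, a receptor for sphingosine 1-phosphate, one of −0.39 (adjusted p = 0.026), and Gpihbp1, which anchors lipoprotein lipase in capillaries, one of −0.65 (adjusted p = 0.0297) in limma. The other called genes, Cd34, Mmrn2, Podxl and Ramp2, were picked once their values had been seen. Nos3, the endothelial nitric oxide synthase, measured 0.585 and 0.653 FPKM in wild-type libraries against 0.213, 0.231 and 0.184 FPKM in Kdm6a-deficient ones, while Vwf, the von Willebrand factor, had 0.435 and 0.424 FPKM in wild-type replicates and 0.503, 0.401 and 0.453 FPKM in those lacking Kdm6a. Both were below the filter and were picked once their values had been seen.

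Of the 8 calls, that of Apln held with any 1 sample left out (limma, adjusted p = 0.0115 to 0.0443). The call of Sox18 was lost on leaving out wild-type sample 1 or Kdm6a-deficient sample 3 (limma, adjusted p = 0.0529 and 0.0695), and that of Gpihbp1 without wild-type sample 3 (0.17) and Kdm6a-deficient samples 1 and 3 (0.0934 and 0.119). S1pr1, Cd34 and Mmrn2 kept their calls only without Kdm6a-deficient sample 2, Ramp2 only without wild-type sample 1, and Podxl in no such fit, with adjusted p up to 0.239 among these genes. Over all lists, 23 genes were called, and 4 of them (Apln, Cldn5, Dcn and Id1) in every fit with 1 sample left out.

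Of 17 tested transcription factors of endothelium, Klf4 was lower (log2 fold change −0.62, adjusted p = 0.0148 from limma), Epas1, the hypoxia-inducible factor HIF-2α, was higher (0.48, adjusted p = 0.0342), and 15 did not pass, with a median of −0.024. For this list and the Notch list below, the background is 2.18% of tested genes called lower and 1.73% called higher. Among the fits with 1 sample left out, the calls of Klf4 and Epas1 were kept only without Kdm6a-deficient sample 2. Of the ETS factors named above, Fli1 changed by 0.03 on the log2 scale (limma, adjusted p = 0.912), and Erg, below the filter, gave 0.762 and 0.687 FPKM for wild-type and 0.558, 0.654 and 0.578 FPKM for Kdm6a-deficient BMDMs (both picked once their values had been seen). Of 7 tested Notch pathway genes, Dll4, the Notch ligand of tip cells, was lower, none was higher and 6 did not pass in limma, with a median log2 fold change of −0.26. Dll4 measured 1.28 and 1.74 FPKM in wild-type libraries against 0.365, 0.518 and 0.630 FPKM in Kdm6a-deficient ones, and was past the filter only through the wild-type samples. Its log2 fold change was −0.74 (limma, adjusted p = 0.0198), a call lost on leaving out wild-type sample 3 or Kdm6a-deficient samples 1 or 3 (limma, adjusted p = 0.124, 0.0605 and 0.0659).

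**Figure D5:**
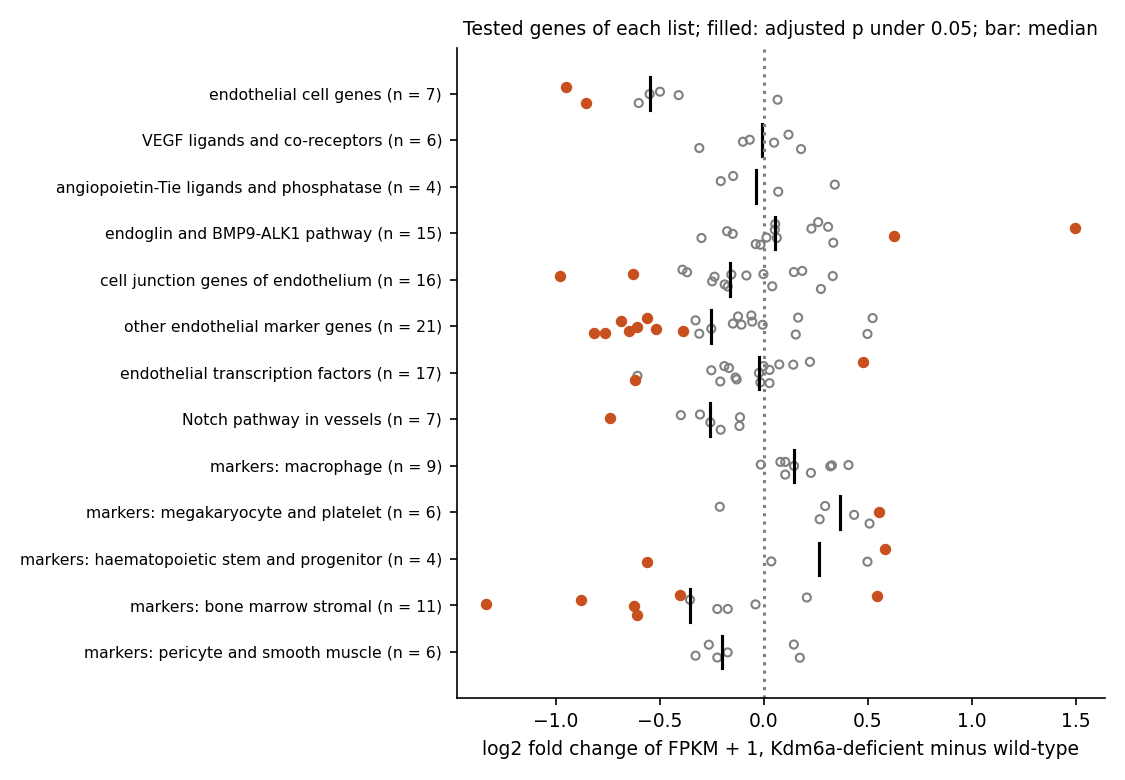
Log2 fold change of FPKM + 1 (Kdm6a-deficient minus wild-type) of each tested gene in the endothelial set and in the 12 lists; filled points have an adjusted p under 0.05, open points do not, and the bar is the median of the list. Medians range from −0.55 for the 7 tested endothelial cell genes to 0.36 for markers of megakaryocytes and platelets.

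Markers of other cell types in a marrow culture moved in both directions beside the endothelial cell genes. Of 11 tested markers of bone marrow stromal cells, 5 were lower, 1 was higher and 5 did not pass in limma (2.18% lower and 1.73% higher over all tested genes). Among the lower 5, Lum was past the filter only through the wild-type samples. The tested markers had a median log2 fold change of −0.35. Among the 12 detected genes of the stromal list, 9 separated the genotypes with the Kdm6a-deficient libraries lower and 1 with them higher. The shares over all detected genes were 18.0% and 14.3%. Summed levels of the list were 4311 to 4579 FPKM in wild-type and 3310 to 3344 FPKM in Kdm6a-deficient samples. Dcn, the proteoglycan decorin, had the largest change of that list, −1.34 (limma, SE 0.07, adjusted p = 0.000444). Lum, Col1a2, Col1a1 and Sparc were also lower, the last 2 named after their values were seen, and each of these calls was lost on leaving out wild-type sample 3 (limma, adjusted p = 0.0581, 0.19, 0.218 and 0.482). The chemokine Cxcl12 was higher (0.54, adjusted p = 0.00804; 0.0868 without wild-type sample 3). Of 6 tested markers of pericytes and smooth muscle, limma called none and 3 reached p under 0.05 before adjustment, with a median log2 fold change of −0.199. Summed levels were 891 to 947 FPKM in wild-type and 964 to 1068 FPKM in Kdm6a-deficient samples. Most of this sum came from Acta2 (420 to 485 FPKM) and Tagln (425 to 543 FPKM, picked once its values had been seen). Among the 10 detected genes of that list, 6 separated the genotypes with the Kdm6a-deficient libraries lower and 3 with them higher. Over all detected genes these shares were 18.0% and 14.3%. Kcnj8 and Myh11, both below the filter and picked once their values had been seen, went opposite ways. In the fit without a filter, Kcnj8 had a log2 fold change of −0.75 (limma, adjusted p = 0.0102), at 15.9% of its wild-type mean. That of Myh11 was 0.24 (limma, adjusted p = 0.108). Without a filter, 1.52% of all genes were called lower and 0.944% higher.

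Megakaryocytes and platelets also express Pecam1 and Esam. For the lists in this paragraph, the background is 2.18% of tested genes called lower and 1.73% called higher. Of 6 tested markers of these cells, Ppbp was higher (0.56, adjusted p = 0.0304 from limma, lost without wild-type sample 1 or Kdm6a-deficient samples 1 or 3, up to 0.127), none was lower and 5 did not pass, with summed levels of 346 to 370 FPKM in wild-type and 447 to 575 FPKM in Kdm6a-deficient samples, most of it from Pf4, the gene of platelet factor 4. Pf4 measured 327 and 347 FPKM in wild-type libraries against 421, 547 and 480 FPKM in Kdm6a-deficient ones (log2 fold change 0.51, adjusted p = 0.066 in limma). It was called higher without Kdm6a-deficient sample 1 or 2 (limma, adjusted p = 0.0386 and 0.0436), after quantile normalization (0.00514) and with a replicate block (0.00734). The platelet genes Gp1bb, at 2.23 to 4.69 FPKM, and Itga2b, at 0.971 to 1.53 FPKM, were also higher in each Kdm6a-deficient library than in either wild-type library, though limma called neither (adjusted p = 0.192 and 0.159). Itgb3, picked once its values had been seen, was lower in each, at 5.05, 4.16 and 4.72 against 5.75 and 5.30 FPKM (adjusted p = 0.335 in limma). Among the 12 detected genes of that list, 4 separated the genotypes upward and 1 downward (14.3% and 18.0% over all detected genes). The 6 markers of this list below the filter ranged from 0.0324 to 0.651 FPKM, and none was at 0 throughout. Of 4 tested markers of haematopoietic stem and progenitor cells, Cd34 was lower (−0.56, adjusted p = 0.0299 from limma) and Cd48 higher (0.58, adjusted p = 0.0138), and both calls were lost on leaving out wild-type sample 3, among others (limma, adjusted p = 0.197 and 0.123). Summed levels of this list were 203 to 210 FPKM in wild-type and 227 to 259 FPKM in Kdm6a-deficient samples. The 9 markers of this list below the filter, Kit and Flt3 among them (picked once their values had been seen), were at 1.15 FPKM or less, and Flt3 was listed at 0 in Kdm6a-deficient sample 1. Of 9 macrophage markers, limma called none. Before adjustment 4 reached p under 0.05, a count with no share over all genes beside it. Summed levels were 2085 to 2140 FPKM in wild-type and 2312 to 2401 FPKM in Kdm6a-deficient samples. In some alternatives limma called macrophage markers higher. Cd68, Mertk, Cd14 and Spi1 passed with a replicate block (adjusted p = 0.015, 0.0388, 0.0174 and 0.0138 from limma), Cd68 and Cd14 after quantile normalization (0.00973 and 0.0189), and Cd68 without Kdm6a-deficient sample 2 (0.0399). The part of these cell types in the lower level of the endothelial cell genes was not tested.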

How the data were processed

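The samples were 2 wild-type and 3 Kdm6a-deficient BMDM cultures under LPS, grouped by the genotype and replicate in their titles. Reads were aligned by TopHat, and the authors deposited FPKM per gene and sample from Cufflinks, as the methods state. The submitters' notes name Bowtie 0.12.2 and the builds mm8 and mm9, with no role. The authors also deposited a signal value per genotype, the mean of normalised counts from DESeq, with the fold change and p-values of that comparison, which were not used.

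Values were tested with limma-trend on log2(FPKM + 1), for genes reaching 1 FPKM in 2 or more libraries, in a single fit of all 5 samples without a block, with Benjamini-Hochberg adjustment over all tested genes and a threshold of 0.05. Fold changes on this scale understate those of low genes. Fits with 1 sample left out kept the same 10893 genes; where 1 wild-type sample was left, it was assumed to vary like the others. The replicate block, median-of-ratios scaling, quantile normalization, a filter on all 5 samples, the omission of any filter and a pseudocount of 0.1 FPKM were tried as well. The fit was tested on simulated data with independent normal noise. It called lower 82 of 100 genes lowered by 1 on the log2 scale and 52 of 100 lowered by 0.5. Of the unchanged genes, 7 were called. A gene with a change near 0.5 can therefore fail to pass. The named genes were the 10 members, up to 4 genes per list with the smallest adjusted p, Kdm6a, and the 3 genes nearest to each called member; others are marked. The members and lists were chosen with earlier results of these data known. Promoters came from RefSeq (GRCm38.p6), in which 7 of the 10 genes were found. limma 3.58.1 ran under R 4.3.3, and matplotlib 3.10.9, numpy 2.4.6 and pandas 2.3.3 under Python 3.11.15.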

Additional observations from a re-analysis of the deposited data

How the results depend on the processing

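Cdh5 and Eng kept their direction and their side of the threshold in all 11 alternatives, and Tie1 in the 10 in which it was tested. Of the endothelial cell genes, 1 was called lower with a filter on all 5 samples, which removes Tie1 and Esam, 3 without a filter, which adds Kdr, and 2 to 5 with 1 sample left out. Their median log2 fold change was −0.72 with a pseudocount of 0.1 FPKM and −0.71 to −0.46 with 1 sample left out (−0.55 in the report). Over all genes, 426 were called (188 higher and 238 lower), and 116 to 676 (54 to 281 higher and 57 to 395 lower) with 1 sample left out. Of the genes in the 12 lists, 23 were called, 14 with the filter on all 5 samples and 5 to 27 with 1 sample left out. The replicate block gave 996 called genes (436 higher and 560 lower), 34 list genes and 5 lower endothelial cell genes, with a median of −0.71; Pecam1, Esam and Egfl7 passed (adjusted p = 0.0254, 0.0266 and 0.0122 from limma). Among the named list genes, Rap1b (higher) and Lyl1 (lower) also passed with the block (adjusted p = 0.00962 and 0.0104 from limma) and without Kdm6a-deficient sample 2 (0.0252 and 0.0152), and Mcam (lower) with the block (0.025). By construction the block takes Kdm6a-deficient sample 2 out of the genotype difference, since no wild-type sample shares its number. Samples that share a number are not known to be paired. Their deviations from the group means correlated at 0.432 for number 1 and −0.144 for number 3 across genes. With 2 wild-type samples, the deviation of 1 is the other with its sign changed. These correlations are therefore not separate values and cannot show whether the samples are paired. Of the named list genes, 3 that did not pass changed sign. Ly6a had log2 fold changes of −0.030 with quantile normalization, −0.043 with the replicate block and −0.043 to 0.0883 with 1 sample left out (below 0 at −0.0086 without wild-type sample 1 and at −0.043 without Kdm6a-deficient sample 2). Nrp2 was at 0.027 with the block and at −0.177 to 0.027 with 1 sample left out, and Angpt1 at −0.039 to 0.72, the lowest without wild-type sample 3. Causes of these changes were not tested beyond what is stated. Kdr, Tek and Flt1, which did not reach 1 FPKM in 2 samples, had mean normalised counts of 22.0 to 151 per genotype, which limits the precision of their differences. The same limit holds for Tie1 and Esam, which were tested. Their counts were 146 and 87.4 in wild-type and 50.8 and 47.0 in Kdm6a-deficient BMDMs.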
